A study of Mus musculus with 24 samples.

Results

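Hair follicle keratins and hair follicle regulators were examined in the skin of E18.5 mouse embryos, taken shortly before birth. The set holds 35 genes of the 54087 gene symbols in the read count table. They were named by what they are known for, and earlier results of these data were known when they were chosen. Of these, 24 are products of the follicle, which are 21 keratins and 3 other structural proteins or enzymes, and 11 are regulators, which are 3 hedgehog genes, 2 genes of Wnt and ectodysplasin signalling and 6 transcription factors. The genotypes were WT, HET and KO. Desmoglein 1 belongs to the desmosomes, the junctions between keratinocytes, and the mouse has the neighbouring genes Dsg1a, Dsg1b and Dsg1c for it. WT embryos have both copies of this cluster, HET embryos have 1 and KO embryos have none. The deletion was made by CRISPR/Cas9 in zygotes of the C57BL/6J strain and came from 1 founder that was then backcrossed, so all HET and KO animals carry the same allele in every cell. Dorsal skin of embryos of both sexes was used whole, and epidermis, follicles and dermis were not separated.

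A hair follicle grows down from the epidermis as a placode, a peg and then a bulb. Wnt, ectodysplasin and hedgehog signals between the epidermis and the dermal papilla, a cluster of specialised fibroblasts, drive the early steps. Later, matrix cells of the bulb differentiate into concentric layers, and each layer makes its own keratins. Keratin filaments form from a type I and a type II chain in equal amounts. In the inner root sheath, the tube that moulds the growing hair, the chains are Krt25 to Krt28 (type I) and Krt71 to Krt73 (type II), while the hair shaft uses the hair keratins Krt31 to Krt36 (type I) and Krt81 to Krt86 (type II). Late fetal skin of the mouse holds follicles of several ages, since the hair types are started in waves.

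There were 24 libraries with 8.98 M to 20.96 M counts (M, mega), 8 per genotype. Their titles carry a number, and 9 of the 15 numbers occur in both of 2 title formats. Format 1 holds those 9 and format 2 all 15. Libraries with the same number were summed, which gave 5 columns per genotype with 15.3 M to 33.7 M counts, called replicates 1 to 5. The labels do not say what a number is, so the p-values measure only the spread between these columns. In 8 of the 9 numbers with 2 libraries, the chi-square per degree of freedom between the pair was 1.59 to 1.86, against a median of 28.8 between different numbers. The exception was WT replicate 2, at 15.6. Of its 2 libraries, one had 338 CPM (counts per M counts) from Y-linked genes and 0.275 from Xist, and the other had 0.157 and 574. The 2 libraries thus differ in sex, and their sum does not describe 1 embryo. For Krt71, a main keratin of the set, the 2 libraries held 98.8 and 88.8 CPM. By the same genes, WT replicate 5, HET replicates 1, 4 and 5 and KO replicates 2, 3 and 4 were male. The other columns except WT replicate 2 were female. Sex was thus not balanced between genotypes, and no fit had a term for it. The summed level of Dsg1a, Dsg1b and Dsg1c was 709 to 947 CPM in WT libraries, 368 to 490 in HET libraries and 0.103 to 1.35 in KO libraries, so each library matched its genotype label. Skin markers were high in every column, with 5530 to 7601 CPM for 5 basal and 53792 to 101375 CPM for 5 suprabasal keratinocyte genes.

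The type I members lie on chromosome 11 and the type II members with a position in the annotation lie on chromosome 15 (GENCODE vM21, build GRCm38). Krt25, Krt26, Krt27 and Krt28 are adjacent between 99315516 and 99374903 on chromosome 11, and Krt71, Krt72 and Krt73 lie between 101733949 and 101802346 on chromosome 15. The sequences just before the start sites of all of these genes but Krt72 are shown. Each is the 80 bases before the RefSeq start on the coding strand (GRCm38.p6, minus strand of the chromosome), with the TATA box TATAAA in capitals. Krt71 and Krt73 are the type II members and the others are type I.
Krt25: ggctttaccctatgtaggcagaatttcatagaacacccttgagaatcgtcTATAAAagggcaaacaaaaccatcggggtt
Krt26: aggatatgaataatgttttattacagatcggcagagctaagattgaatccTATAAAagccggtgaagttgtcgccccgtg
Krt27: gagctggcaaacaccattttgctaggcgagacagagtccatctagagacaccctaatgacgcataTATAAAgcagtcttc
Krt28: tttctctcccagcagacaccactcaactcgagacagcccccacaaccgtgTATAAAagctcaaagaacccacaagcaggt
Krt71: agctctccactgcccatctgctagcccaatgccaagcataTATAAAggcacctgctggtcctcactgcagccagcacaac
Krt73: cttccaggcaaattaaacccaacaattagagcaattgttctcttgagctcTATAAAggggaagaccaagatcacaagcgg
The regions are chr11:99322952-99323031 for Krt25, chr11:99337966-99338045 for Krt26, chr11:99351119-99351198 for Krt27, chr11:99374904-99374983 for Krt28, chr15:101743098-101743177 for Krt71 and chr15:101802361-101802440 for Krt73. TATAAA begins 30 bases before the start in Krt25, Krt26, Krt28 and Krt73, 40 bases before it in Krt71 and 15 bases before it in Krt27. These distances depend on the start chosen. The GENCODE start is 99351104 for Krt27 (RefSeq 99351118), 101743109 for Krt71 (RefSeq 101743097) and 101802346 for Krt73 (RefSeq 101802360). For comparison, the same stretch of Krt79, a keratin of the follicle opening, and of Msx1, a homeobox regulator, holds no TATAAA. Both varied with Krt71 between columns (Spearman rho 0.89 and 0.95 after genotype means were removed).
Krt79: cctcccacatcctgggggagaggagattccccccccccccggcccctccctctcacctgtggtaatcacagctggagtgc
Msx1: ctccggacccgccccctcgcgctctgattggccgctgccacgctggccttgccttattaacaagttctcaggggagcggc
Those regions are chr15:101940325-101940404 and chr5:37824586-37824665. A RefSeq promoter window was found for 25 of the 35 members. In the 250 bases before the start, on either strand, TATAAA occurred in 7 of 7 inner root sheath keratins, in 13 of 18 products and in 1 of 7 regulators (Lef1), against 12.4% of 32851 windows of all genes. The core motif of LEF1 and TCF proteins, CTTTGA, occurred in 7 of 18 products (Krt28, Krt31, Krt32, Krt33b, Krt34, S100a3 and Tchh) and in 2 of 7 regulators (Edar and Lef1), against 13.8% of all windows. A match describes the letters in the window and is not a binding site. Its part in the variation between columns was not tested.

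No product and no regulator passed the test for a change with genotype, while most products differed several-fold between columns of the same genotype. To be called, a gene needed a log2 fold change of at least 1 in size and an adjusted p no larger than 0.1 (edgeR's quasi-likelihood test, Benjamini-Hochberg adjustment over all genes tested). The test covered 17094 genes and 31 of the 35 members, that is 20 products and 11 regulators. KO against WT called 0 of 31 members, where 0.322% of all genes tested were called. HET against WT also called 0 of 31, where 0.0% of all genes were called, and KO against HET called 0 of 31, where 0.181% were called. The count of called members was 0 with DESeq2 and limma-voom as well. At an unadjusted p below 0.05 there were 2 of 31 members in KO against WT (19.3% of all genes), 2 in HET against WT (1.58%) and 3 in KO against HET (16.0%), all of them higher in the genotype named first (10.1%, 0.825% and 8.17% of all genes on that side alone). No tested member had separate ranges in any comparison, against 3.37%, 0.374% and 2.25% of all genes. In bulk skin, fewer cells of a type and less RNA per cell cannot be told apart, and this holds for every value given here.

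**Figure D1:**
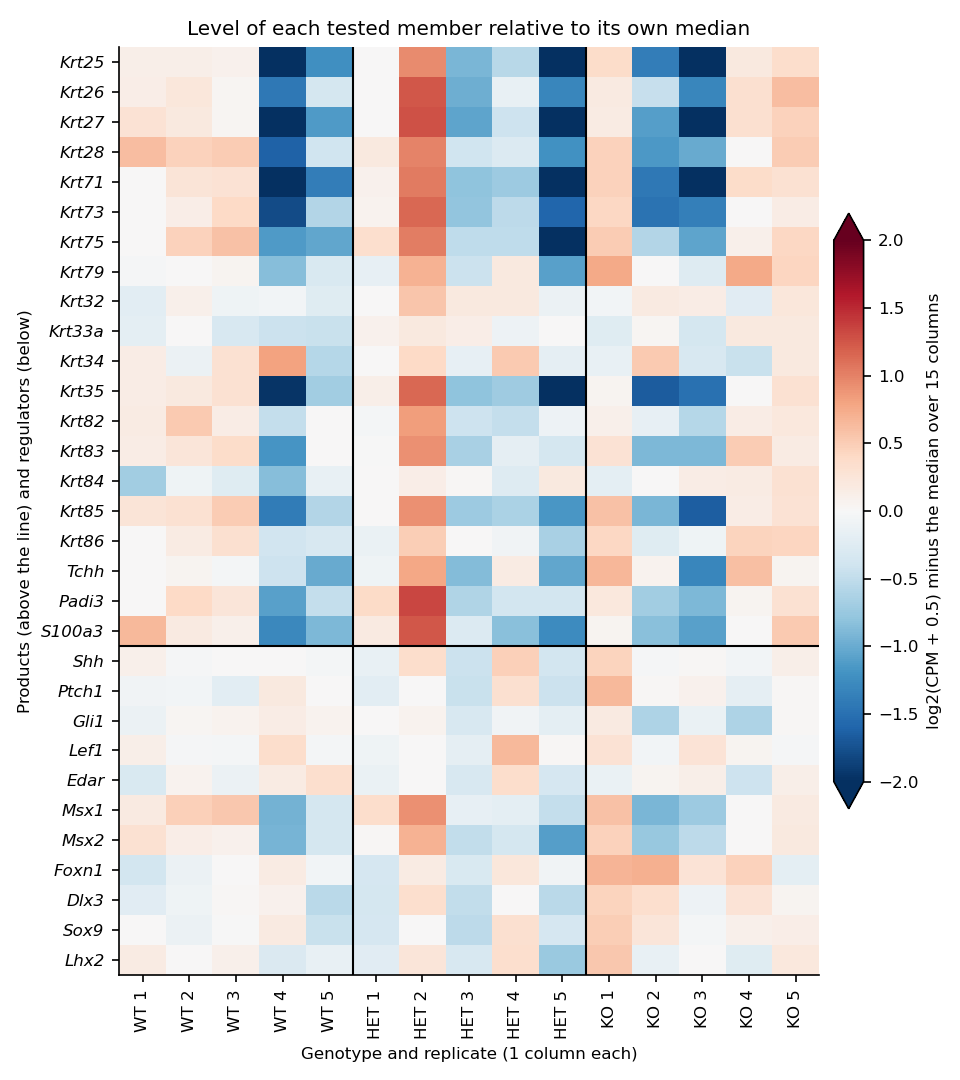
Heat map of the 31 tested members (rows, 20 products above the line and 11 regulators below) in the 15 columns (WT, HET and KO replicates 1 to 5). Colour is log2(CPM + 0.5) minus the gene's median over the 15 columns, from -2 (blue) to 2 (red). WT 4, HET 5 and KO 3 are blue for most products and HET 2 is red, whereas most regulators stay near white in those columns.

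Krt71, the main type II keratin of the inner root sheath, was 78.5, 93.5, 96.4, 11.4 and 29.7 CPM in WT replicates 1 to 5. In HET replicates 1 to 5 it was 83.3, 162, 44.9, 47.1 and 13.9 CPM, and in KO replicates 1 to 5 it was 108, 29, 18.7, 101 and 97.5 CPM. Every genotype thus held columns with a high and columns with a low level, and the 3 ranges overlapped almost completely. The means were 61.9 ± 38.9 (SD, n = 5) in WT, 70.3 ± 57.0 in HET and 70.9 ± 43.3 in KO. Krt25, its type I partner, was 55.7, 55.7, 54.8, 9.02 and 21.6 CPM in WT, 51.4, 99.6, 27.2, 34.9 and 10.8 CPM in HET and 66.6, 19.4, 12.6, 59.0 and 65.5 CPM in KO. The same columns were low for both genes.

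The other inner root sheath keratins followed the same columns. Krt27 ran from 3.83 CPM in HET replicate 5 to 66.5 CPM in HET replicate 2, a 17.4-fold range. Krt28 ran from 9.35 to 59.5 CPM and Krt73 from 10.6 to 85.2 CPM, each with the lowest value in WT replicate 4 and the highest in HET replicate 2. Krt26 was a minor chain, from 0 CPM in WT replicate 4 to 2.68 CPM in HET replicate 2, and within HET alone its range was 56.0-fold, on few counts. It was named for KO against WT as the member of its group with the largest fold change, and that difference was within its error (log2 fold change 0.27 ± 0.86, SE, edgeR adjusted p = 0.882). Krt72, a type II keratin of the sheath cuticle, was below the filter with 117 counts in all. It had 0 to 5 counts in the WT columns, 46 in HET replicate 2 but 0 or 1 in the other HET columns, and 4 to 18 in the KO columns. Over the 6 tested genes of the group, the median log2 fold change was 0.16 for KO against WT and 0.19 for HET against WT, beside -0.01 and 0.00 over all genes.

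Krt79, which marks cells of the follicle opening and its canal, had the highest level per length of all members with an exon length, 42.4 ± 9.67 CPM per kb in WT. Per column it was 225, 230, 238, 127 and 186 CPM in WT, 206, 374, 170, 265 and 108 CPM in HET and 391, 230, 192, 391 and 309 CPM in KO. KO replicates 1, 4 and 5 exceeded all WT columns and the other KO columns did not. The log2 fold change for KO against WT was 0.59 ± 0.30 (edgeR adjusted p = 0.288). Krt75, the keratin of the companion layer between the inner and outer sheaths, was 8.05, 11.3, 12.4, 3.38 and 3.68 CPM in WT, 10.3, 16.9, 5.52, 5.53 and 1.15 CPM in HET and 11.6, 5.20, 3.62, 8.69 and 10.9 CPM in KO. Its low columns were those of Krt71.

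Hair shaft keratins were present but low, and Krt35 led them. Krt35, one of the first type I chains made in the cells that leave the matrix, was 23.1, 23.9, 25.9, 4.98 and 12.7 CPM in WT, 22.8, 46.9, 11.7, 12.6 and 4.64 CPM in HET and 21.8, 6.23, 7.11, 20.9 and 26 CPM in KO. It was high and low in the same columns as Krt71. Krt85, its type II partner, ran from 1.93 to 8.60 CPM in WT, 2.34 to 11.6 in HET and 1.53 to 9.08 in KO. Per length, Krt35 stood at 7.57 ± 3.74 CPM per kb in WT, against 28.3 ± 17.8 for Krt71. Krt32, a type I keratin of the hair cuticle, behaved otherwise, at 2.86, 3.68, 3.16, 3.24 and 2.77 CPM in WT, 3.38, 5.21, 3.94, 3.97 and 3.06 CPM in HET and 3.25, 3.91, 3.79, 2.83 and 4.05 CPM in KO. Its whole range was 1.88-fold, and WT replicate 4, lowest for Krt71, was within the range of the other WT columns for Krt32. Its log2 fold change for KO against WT, the largest in size among the type I hair keratins with enough counts, was 0.18 ± 0.16 (edgeR adjusted p = 0.542).

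The remaining type I hair keratins were close to the limit of detection. Krt33a had 180 counts in all and Krt34 had 177, and both entered the test, while Krt31 had 101 and Krt33b had 62, and neither did. In HET against WT, Krt33a was one of the 2 members with an unadjusted p below 0.05. It was 0.388, 0.522, 0.316, 0.255 and 0.252 CPM in WT, 0.586, 0.670, 0.625, 0.455 and 0.526 CPM in HET and 0.361, 0.553, 0.298, 0.668 and 0.667 CPM in KO, with a log2 fold change for HET against WT of 0.71 ± 0.28 (edgeR adjusted p = 1.00). The HET range overlapped the WT range through HET replicate 4 and WT replicate 2. These genes are near-copies: 17.8% of the 50-base windows of Krt33a occur in another gene, 33.1% of those of Krt34, 28.1% of those of Krt31 and 24.2% of those of Krt33b, so their individual counts are uncertain.

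Among the type II hair keratins with an exon length, which leaves out Krt85, Krt83 had the highest level per length, 0.880 ± 0.379 CPM per kb in WT. It was 1.84, 2.0, 2.21, 0.437 and 1.61 CPM in WT, 1.59, 3.50, 0.846, 1.37 and 1.15 CPM in HET and 2.07, 0.627, 0.638, 2.52 and 1.86 CPM in KO. HET replicate 2 was again highest and WT replicate 4 lowest. Krt84, which is best known from the filiform papillae of the tongue, was 0.873, 1.59, 1.39, 0.728 and 1.51 CPM in WT, 1.72, 1.93, 1.77, 1.37 and 2.06 CPM in HET and 1.44, 1.73, 1.96, 2.0 and 2.24 CPM in KO. It was low in WT replicates 1 and 4 and the ranges overlapped. Its log2 fold change was 0.61 ± 0.22 for KO against WT (edgeR adjusted p = 0.162) and 0.54 ± 0.22 for HET against WT (edgeR adjusted p = 1.00). KO and HET are compared with the same WT columns, and KO against HET gave 0.07 ± 0.21. Krt82 ran from 0.213 to 1.38 CPM and Krt86 from 0.0957 to 0.818 CPM, and Krt81 had 93 counts and was not tested. Of the 50-base windows of Krt86, 43.3% occur in another gene, as do 37.7% of those of Krt81 and 22.1% of those of Krt83.

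Tchh encodes trichohyalin, which hardens the inner root sheath, and Padi3 encodes the deiminase that modifies it. Tchh was 46.6, 48.6, 45.4, 34.8 and 23 CPM in WT, 43.7, 79.8, 25.4, 52.4 and 22.4 CPM in HET and 73.8, 48.9, 18.6, 70.9 and 48.3 CPM in KO. Tchh was less reduced than Krt71 in WT replicate 4 and KO replicate 2. Its log2 fold change for KO against WT was 0.39 ± 0.39, the largest of its group (edgeR adjusted p = 0.591). Padi3 was 4.66, 6.29, 5.60, 1.93 and 3.22 CPM in WT, 6.22, 12.5, 2.91, 3.51 and 3.49 CPM in HET and 5.50, 2.69, 2.26, 4.88 and 5.86 CPM in KO, low in the columns where Krt71 was low. S100a3, a calcium-binding protein of the hair cuticle, ran from 1.16 to 9.04 CPM.

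**Figure D2:**
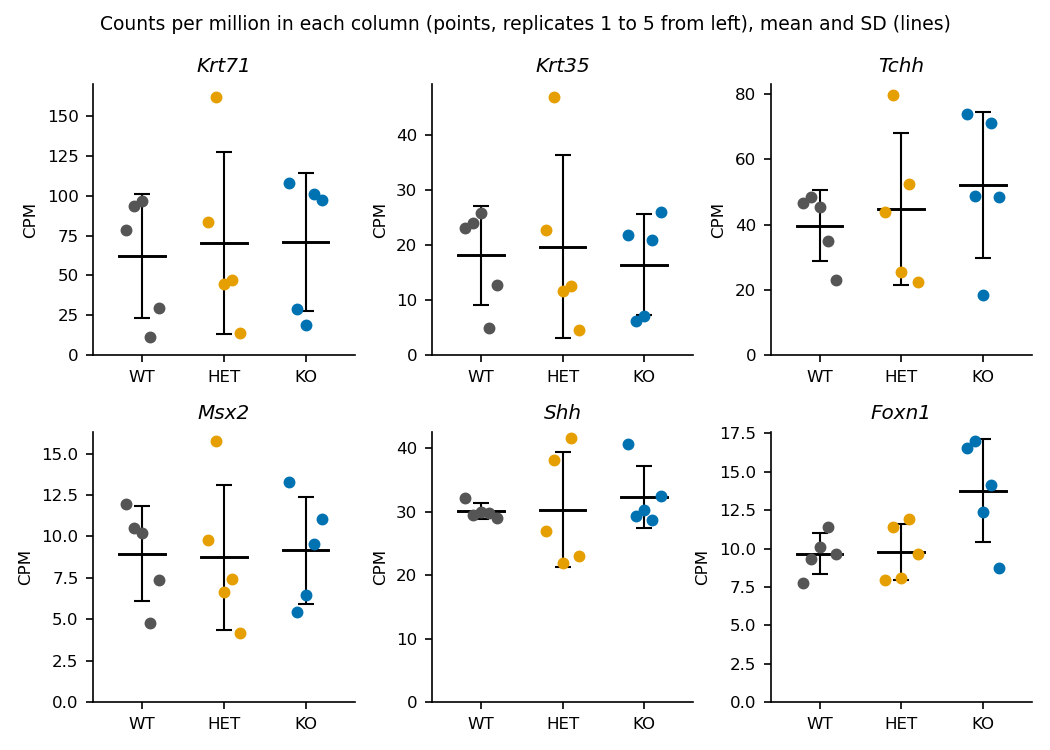
Level in CPM (vertical axis, from 0) of 4 genes that varied between columns (Krt71, Krt35, Tchh and the regulator Msx2) and 2 that varied less (Shh and Foxn1), by genotype. Points are columns, with replicates 1 to 5 from left to right, and lines are the mean and SD of 5 columns. Krt71 and Krt35 fall into high and low columns in every genotype, Shh stays between 21.9 and 41.6 CPM, and 4 of 5 KO columns of Foxn1 lie above all WT columns.

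The regulators were steadier. Shh, the hedgehog ligand made by the matrix, was 29.1 to 32.2 CPM in WT, 21.9 to 41.6 in HET and 28.7 to 40.7 in KO. Ptch1, the hedgehog receptor and itself a target of the pathway, was 270, 271, 243, 324 and 282 CPM in WT, 243, 282, 208, 351 and 210 CPM in HET and 442, 285, 299, 249 and 288 CPM in KO, with KO replicate 1 above all others. Gli1, the transcription factor that hedgehog signalling induces, was 92.3, 103, 105, 111 and 104 CPM in WT, 99.8, 105, 80.1, 94.8 and 87.1 CPM in HET and 113, 65.0, 91.0, 65.2 and 101 CPM in KO. KO replicates 2 and 4 had the lowest Gli1 of the series and KO replicate 1 the highest. The log2 fold change of Gli1 for KO against WT was -0.24 ± 0.14, the largest of the group in size (edgeR adjusted p = 0.332).

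Lef1, the nuclear effector of Wnt signalling, was 24.6, 22.2, 21.9, 29.1 and 22 CPM in WT, 21.4, 22.7, 19.9, 35.9 and 23 CPM in HET and 27.9, 21.9, 27.4, 23.6 and 22.3 CPM in KO. HET replicate 4 was the only column above 30 CPM and its Krt71 was intermediate. Edar, the ectodysplasin receptor of the placode, was 34.7, 44.9, 39.6, 48.1 and 54.1 CPM in WT, 39, 42.9, 34.1, 54.6 and 33.9 CPM in HET and 39.2, 44.4, 46.8, 32 and 46.4 CPM in KO. The ranges overlapped, and the log2 fold change of Edar for KO against WT was -0.08 ± 0.15 (edgeR adjusted p = 0.773). WT replicates 4 and 5, low in all inner root sheath keratins, had the 2 highest Edar values in WT. KO replicate 3, with the lowest Krt71 in KO, had the highest Edar in KO. HET replicate 5, with the lowest Krt71 in HET, had the lowest Edar in HET, so the order was not shared by all genotypes.

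Of the transcription factors, Lhx2, which acts in placodes and hair stem cell precursors, was 85.3, 76.0, 81.6, 62.4 and 68.6 CPM in WT, 64.8, 89.7, 60.9, 96.1 and 45.2 CPM in HET and 110, 68.3, 76.0, 64.2 and 88.3 CPM in KO. Dlx3, which acts in differentiating matrix cells and in the upper epidermis, was 36.6, 40.5, 43.8, 45.3 and 29.3 CPM in WT, 33.5, 54.0, 30.3, 42.9 and 29.2 CPM in HET and 58.6, 54.1, 40.0, 51.8 and 44.5 CPM in KO. Dlx3 was higher in KO than in HET by a log2 fold change of 0.39 ± 0.17 that did not pass adjustment (edgeR adjusted p = 0.269). Sox9, a regulator of the outer root sheath, ran from 16.7 to 25.9 CPM in WT, 15.7 to 28.6 in HET and 22.1 to 32.5 in KO, with a log2 fold change for KO against HET of 0.35 ± 0.16 (edgeR adjusted p = 0.288).

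Foxn1 had the smallest adjusted p of all members in KO against WT. It is the gene mutated in nude mice, which acts in differentiating keratinocytes of the follicle and of the suprabasal epidermis. It was 7.76, 9.30, 10.1, 11.4 and 9.67 CPM in WT, 7.94, 11.4, 8.06, 11.9 and 9.62 CPM in HET and 16.6, 17.0, 12.4, 14.1 and 8.76 CPM in KO. KO replicates 1 to 4 were above every WT and HET column and KO replicate 5 was within both ranges. The log2 fold change was 0.51 ± 0.17 for KO against WT (edgeR adjusted p = 0.145) and 0.50 ± 0.17 for KO against HET (edgeR adjusted p = 0.197), beside 0.01 ± 0.17 for HET against WT. Over 22 alternatives the adjusted p of Foxn1 for KO against WT ran from 0.00993 to 0.551, and 5 of them gave 0.1 or below. Those were 0.0442 without KO replicate 5, 0.0841 without WT replicate 4, 0.0690 with DESeq2, 0.0848 with the 2 unlike libraries of WT replicate 2 as 2 columns and 0.00993 with all 24 libraries as separate columns, which counts some title numbers more than once. The fold change stayed below the limit in each. Of 5 suprabasal markers, 3 had an unadjusted p below 0.05 and were higher in KO than in WT, beside 10.1% of all genes on that side, but none was called. None was at 0, and their summed level was 53932 to 77438 CPM in WT, 53792 to 71568 in HET and 67317 to 101375 in KO. KO replicate 2 had the highest value of both. The part of the suprabasal cells in the level of Foxn1 was not tested.

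**Figure D3:**
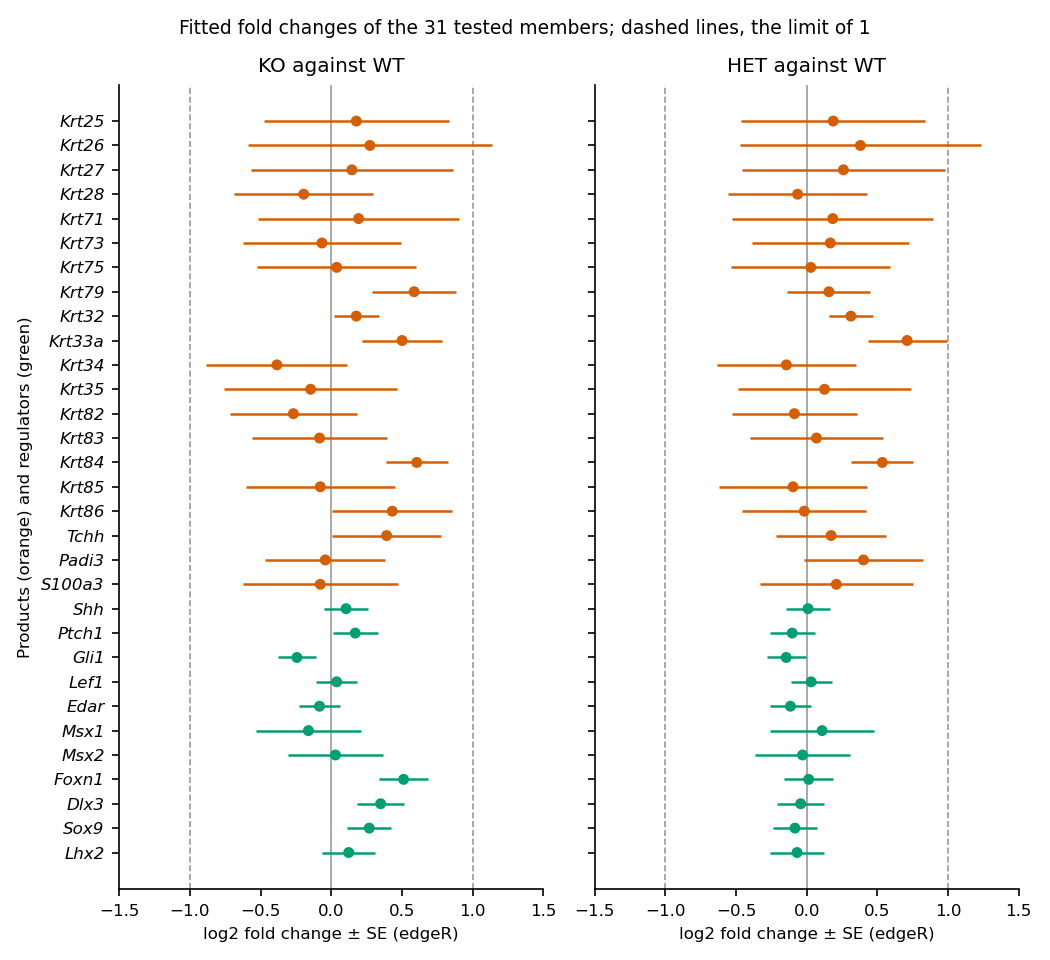
Fitted log2 fold change (points, edgeR) with SE (lines) of the 31 tested members for KO against WT (left) and HET against WT (right), products in orange and regulators in green. All points lie inside the limit of 1 marked by dashed lines, and the SE of the products (median 0.50) is wider than that of the regulators (median 0.16).

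The precision of these comparisons followed the spread between columns. The median SE of a log2 fold change was 0.50 over the 20 tested products and 0.16 over the 11 regulators in KO against WT, against 0.14 over all genes. The median log2 fold change was 0.09 for products and 0.10 for regulators in KO against WT, 0.17 and -0.04 in HET against WT, and -0.12 and 0.10 in KO against HET, beside medians between -0.01 and 0.00 over all genes. A change of the inner root sheath keratins of the size of 1 SE (median 0.68) was not detectable with 5 columns per genotype, and the test does not show that their levels are alike.

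Expressed as the SD of log2(CPM + 0.5) within genotype, the median was 0.75 for the 20 products, 0.27 for the 11 regulators and 0.21 for all genes. The 95th percentile of all genes was 0.50, and 14 of 20 products but 2 of 11 regulators, Msx1 and Msx2, exceeded it. The 6 tested inner root sheath keratins all did, from 0.82 for Krt26 to 1.26 for Krt71. The products below it were Krt32 (0.20), Krt33a (0.19), Krt84 (0.25), Krt86 (0.35), Krt82 (0.41) and Krt34 (0.42). Values below 1 CPM are compressed by the added 0.5, and Krt33a, Krt34, Krt82 and Krt86 were below it on average, whereas Krt32 and Krt84 were not. Without WT replicate 2 the medians were 0.77 for products and 0.28 for regulators.

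**Figure D4:**
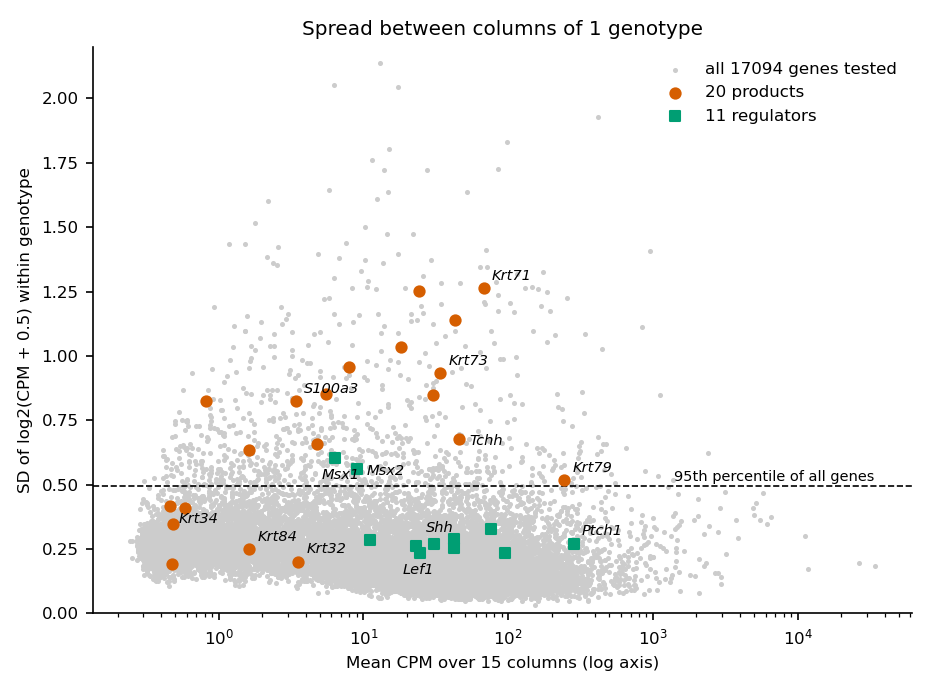
SD of log2(CPM + 0.5) within genotype (vertical axis) against mean CPM (horizontal, log axis) for all 17094 genes tested (grey), the 20 products (orange) and the 11 regulators (green squares). The dashed line is the 95th percentile of all genes at 0.50, above which lie 14 products and the regulators Msx1 and Msx2. The vertical axis ends at 2.2, and grey points above it are not drawn.

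For the members as groups, libraries with the same number held nearer levels than different numbers did. Over the 8 numbers whose libraries agreed, the median absolute difference in log2(CPM + 0.5) between the 2 libraries of a number was 0.14 for products and 0.10 for regulators. Between different numbers of 1 genotype and title format it was 0.94 for products and 0.28 for regulators. For Krt71 the largest difference within a number was 0.15, against a median of 1.62 between numbers. This did not hold for every member. For Krt32 and Krt86 the median difference was larger within a number (0.28 and 0.65) than between numbers (0.22 and 0.50). For Krt84 it was 0.28 against 0.29 and for Krt33a 0.22 against 0.24. Krt75 differed by up to 1.15 within a number. Low columns occurred in numbers with 2 libraries and in numbers with 1 library.

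Most products were high or low in the same columns. Each column was described by how many of the 20 products lay below their own median over all 15 columns. That count was 19 in WT replicate 4, 18 in WT replicate 5, HET replicate 5 and KO replicate 3, 16 in HET replicates 3 and 4 and 14 in KO replicate 2. It was 0 in HET replicate 2 and KO replicate 5 and 2 to 5 in the other 6 columns. These 7 low columns were 2 of WT, 3 of HET and 2 of KO. The regulators shared this order in some columns and not in others. Of 11 regulators, 0 were below their median in HET replicate 2, 2 in KO replicate 5 and 1 in KO replicate 1, all columns with high products, and 11, 10 and 8 were in HET replicate 3, HET replicate 5 and WT replicate 5, all with low products. By contrast, 3 were below it in WT replicate 4 and in HET replicate 4, 5 in KO replicate 3 and 6 in KO replicate 2, which had low products, and 8 in HET replicate 1, which did not. Summed over all 24 products, the level ran from 205 to 1043 CPM, a 5.09-fold range, and summed over the 11 regulators from 488 to 904 CPM, a 1.85-fold range. Of the columns with low products, WT replicate 4 and HET replicate 3 were female and the others male. The remaining columns held both sexes. The part of sex in these levels was not tested.

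After genotype means were removed, the median Spearman rho over all 190 pairs of tested products was 0.80 (range -0.50 to 0.98), and over the 15 pairs of inner root sheath keratins it was 0.92 (range 0.86 to 0.98). The pairs share the same 15 columns and their library sizes, and the values are a description without a test. Products and the 9 regulators other than Msx1 and Msx2 had a median rho of 0.24 over 180 pairs. The products least like Krt71 were Krt34 (rho 0.06), Krt32 (0.22), Krt84 (0.28) and Krt33a (0.50), which have in common a small spread or few counts. That trait did not set them apart, since Krt86 (0.925) and Krt82 (0.846) shared it and followed Krt71.

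Msx1 and Msx2, homeobox factors of the hair matrix, followed the products rather than the other regulators, and they were singled out after their values were seen. Msx1 was 6.84, 8.58, 8.98, 2.87 and 4.58 CPM in WT, 7.84, 11.8, 5.33, 5.20 and 4.16 CPM in HET and 9.26, 2.95, 3.45, 6.01 and 6.86 CPM in KO. Msx2 was 12, 10.5, 10.2, 4.80 and 7.35 CPM in WT, 9.76, 15.7, 6.66, 7.42 and 4.21 CPM in HET and 13.3, 5.42, 6.47, 9.56 and 11 CPM in KO. Their rho with Krt71 after genotype means were removed was 0.95 and 0.87, and their median rho with all products was 0.85 over 40 pairs. Among the other regulators the rho with Krt71 was 0.59 for Lhx2, 0.48 for Shh, 0.46 for Dlx3, 0.34 for Sox9, 0.25 for Gli1, 0.06 for Ptch1, -0.01 for Foxn1, -0.13 for Lef1 and -0.28 for Edar.

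**Figure D5:**
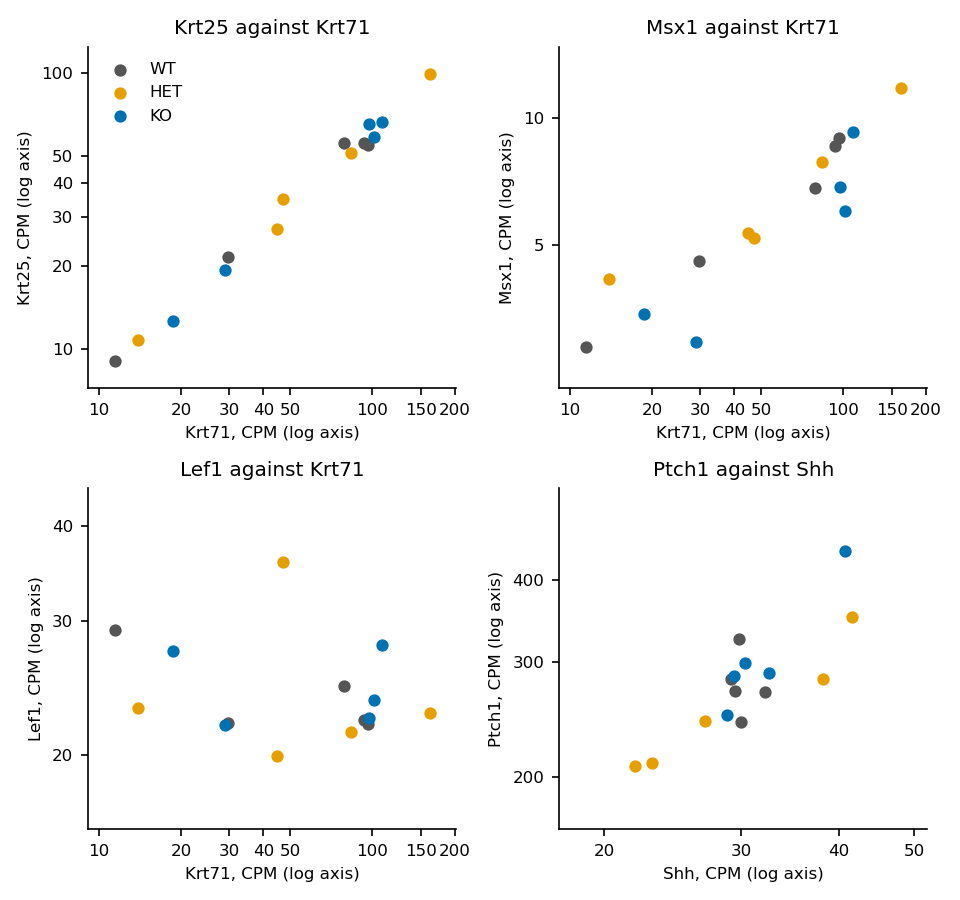
Levels in CPM (all axes logarithmic) in the 15 columns, coloured by genotype: Krt25, Msx1 and Lef1 against Krt71, and Ptch1 against Shh. Krt25 follows Krt71 along 1 line through all genotypes, Msx1 follows it with more scatter, Lef1 does not change along the axis of Krt71, and Ptch1 rises with Shh.

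In the inner root sheath the type I and type II chains kept nearer proportions than their amounts did. The ratio of type I to type II inner root sheath keratins, on CPM per kb, was 1.07 to 1.46 in the 15 columns, a 1.37-fold range, with means of 1.26 ± 0.146 in WT, 1.22 ± 0.103 in HET and 1.22 ± 0.121 in KO (SD, n = 5). Krt25 over Krt71 was 0.625 to 0.868 per kb. By contrast, Krt71 over Shh was 0.499 to 5.53 per kb, an 11.1-fold range. Tchh over Krt71 ran from 0.177 to 1.14 and Krt79 over Krt71 from 1.06 to 5.13 per kb, both highest in WT replicate 4. The hair shaft pair varied more than the sheath pairs, with Krt35 over Krt85, in CPM, at 1.98 to 4.64, a 2.34-fold range. Its lowest and highest ratios, in HET replicate 5 and KO replicate 3, rested on 49 and 36 counts of Krt85. Counting noise may therefore widen this range.

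A total of 8 relations between members, chosen for their known roles, were computed over the 15 columns on log2(CPM + 0.5), with two-sided permutation tests of 100000 resamples and adjustment over the 8. Krt25 and Krt71 had a Pearson r of 0.996 (adjusted permutation p = 8e-05) and a rho of 0.971 (adjusted permutation p = 8e-05), and r was 0.992 without the 2 columns farthest from the median of Krt25. Krt35 and Krt85 had an r of 0.947 and a rho of 0.904 (adjusted permutation p = 8e-05 for r). An unadjusted p of 1e-05 is the smallest that this number of resamples can give. Shh and Ptch1 had an r of 0.844 (adjusted permutation p = 0.000347) and a rho of 0.729 (adjusted permutation p = 0.00792), and r was 0.744 without the 2 farthest columns, 0.808 within the 9 numbers of both title formats and 0.962 within the 6 of 1 format.

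The other relations did not pass. Shh and Gli1 had an r of 0.401 and a rho of 0.493 (adjusted permutation p = 0.222 and 0.128), and Gli1 and Ptch1 an r of 0.412 and a rho of 0.382 (adjusted permutation p = 0.222 and 0.255). After genotype means were subtracted, r was 0.544 for Shh and Gli1 (adjusted permutation p = 0.0322) and 0.637 for Gli1 and Ptch1 (adjusted permutation p = 0.0281), so these 2 relations passed with the genotype means removed and not without. Neither Foxn1 nor Lef1 tracked the hair keratin Krt35, with r of -0.219 and -0.249 (adjusted permutation p = 0.493 for both), and Foxn1 and Msx2 had an r of -0.0853 (adjusted permutation p = 0.760). Within the 9 numbers of both title formats r was -0.293 for Foxn1 and Krt35 and -0.389 for Lef1 and Krt35, and within the other 6 it was -0.0680 and -0.0669.

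Other cell types were followed through marker lists. Across the 15 columns, the Spearman rho of a list's summed level with Krt71 was 0.57 for 4 melanocyte genes, 0.42 for 6 skeletal muscle genes, 0.22 for 8 dermal papilla genes, 0.23 for 5 basal and 0.00 for 5 suprabasal keratinocyte genes, -0.03 for adipocyte, 0.23 for sebocyte and -0.21 for erythroid genes, and -0.48 for 6 dermal fibroblast genes. These values are a description over columns that share library sizes, and no listed marker was at 0 over the series. Melanocyte genes summed to 197 to 244 CPM in WT, 108 to 265 in HET and 190 to 312 in KO. Dermal fibroblast genes summed to 21884 to 35968 CPM in WT, 19439 to 31346 in HET and 14270 to 29015 in KO, and WT replicate 4 had the highest fibroblast sum and the lowest Krt71. The part of these cell types in the level of the keratins was not tested. Dermal papilla genes summed to 216 to 277 CPM in WT, 185 to 243 in HET and 125 to 285 in KO, and none of the 8 was called. The smallest p of that list in KO against WT was that of Crabp1, at 34.2 ± 12 CPM in WT and 18 ± 7.94 in KO (log2 fold change -0.92 ± 0.32, edgeR adjusted p = 0.157).

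Other follicle genes from lists of the same pathways gave 64 tested genes. Of these, 1 was called in KO against WT (0.322% of all genes). None was called in HET against WT (0.0% of all genes) or in KO against HET (0.181%). At an unadjusted edgeR p below 0.05 there were 10 of 64 in KO against WT, 1 in HET against WT and 9 in KO against HET. The shares over all genes were 19.3%, 1.58% and 16.0%. In KO against WT, 0 of 9 other hedgehog genes were called, with the smallest p for Sufu, an inhibitor of the pathway (log2 fold change 0.15 ± 0.10, edgeR adjusted p = 0.380). None of 17 other Wnt and ectodysplasin genes was called. The smallest p was that of Wnt10a, a Wnt ligand of the placode and the epidermis, at 14.7 ± 1.16 CPM in WT, 14.9 ± 3.27 in HET and 22.5 ± 1.94 in KO (SD, n = 5). Its log2 fold change was 0.62 ± 0.13 for KO against WT (edgeR adjusted p = 0.0569) and 0.59 ± 0.13 for KO against HET (edgeR adjusted p = 0.0877), within the adjusted threshold but below the limit on fold change. The KO columns lay above all WT and HET columns. Without KO replicate 1 the edgeR adjusted p for KO against WT was 0.159, and without WT replicate 1, 2, 3 or 5 it was 0.131, 0.177, 0.146 and 0.101. It was 0.532 in title format 1 alone. For KO against HET, 12 of 22 alternatives gave 0.1 or below, and the others, which include total count scaling, the covariate for title formats and 5 fits without 1 column, ran up to 0.249.

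Of 10 tested BMP and FGF genes of the follicle, none was called in KO against WT and 3 had an unadjusted p below 0.05, all lower, beside 1569 of all 17094 genes on that side. Fgf22 had the smallest p, at 21.4 ± 2.55 CPM in WT and 14.5 ± 5.12 in KO (log2 fold change -0.57 ± 0.21, edgeR adjusted p = 0.168). Of 15 other follicle transcription factors, none was called and 12 had a fitted value above 0, as did 8312 of all 17094 genes. Hr, the hairless corepressor, had the smallest p, at 149 ± 33.3 CPM in WT and 246 ± 68.5 in KO (log2 fold change 0.72 ± 0.20, edgeR adjusted p = 0.110). Of 11 tested structural genes of the follicle, none was called and 4 had an unadjusted p below 0.05, all higher, beside 10.1% of all genes on that side. They were Krt36, Padi1, Tgm3 and Dsg4, and the part of the suprabasal cells in their levels was not tested. Dsg4, the desmoglein of the hair shaft and the gene next to the deleted cluster, was 1.16 ± 0.497 CPM in WT, 2.51 ± 1.52 in HET and 3.72 ± 1.64 in KO (log2 fold change 1.66 ± 0.44 for KO against WT, edgeR adjusted p = 0.102). Over 22 alternatives the log2 fold change of Dsg4 was 1.13 to 1.91 and its adjusted p 0.00679 to 0.655. In 9 of them it was called, among them DESeq2, title format 2 alone and the fits without WT replicate 4 or without KO replicate 2, 3 or 5.

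Keratin-associated proteins, which cross-link the hair keratins late in the shaft, were almost silent: 55 symbols summed to 0.571 to 1.90 CPM per column and 2 passed the filter on low counts. One of them, Krtap3-2, was the only follicle gene outside the members that was called. It was 1.12, 0.898, 1.01, 0.800 and 0.957 CPM in WT, 0.716, 1.23, 0.993, 0.781 and 0.431 CPM in HET and 0.0301, 0.627, 0.170, 0.154 and 0 CPM in KO. All KO columns were below all WT columns, and the level did not follow Krt71, since KO replicates 1, 4 and 5 had a high Krt71. The log2 fold change was -2.22 ± 0.54 for KO against WT (edgeR adjusted p = 0.0915) and -2.04 ± 0.54 for KO against HET (edgeR adjusted p = 0.144). It rested on 255 counts, and the adjusted p for KO against WT ran from 0.00242 to 0.583 over 21 alternatives, with 12 of them at or below 0.1. The call was lost with a covariate for numbers in both title formats (edgeR adjusted p = 0.107), with only the 2 genotypes fitted (0.197) and in title format 1 alone (0.583). It was also lost without WT replicate 1, 2, 3 or 5 (edgeR adjusted p = 0.184, 0.212, 0.182 and 0.139) and without KO replicate 1 or 4 (0.188 and 0.204). The other tested gene, Krtap17-1, had 146 counts and a log2 fold change of -0.03 ± 0.32.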

How the data were processed

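RNA was poly(A)-selected and made into stranded libraries (NEBNext Ultra II Directional). The values used are raw counts per gene symbol, whole numbers as deposited by the authors. The submitters' processing notes name STAR, HTSeq and hg19, a human build; versions, strand setting and annotation are not given in the sources used here. Libraries with the same title number and genotype were summed. Counts were filtered with filterByExpr, scaled with TMM factors and fitted in edgeR 4.0.16 (R 4.3.3) by quasi-likelihood, on all 15 columns together with genotype as the only term. DESeq2 1.42.0, limma 3.58.1 (voom), other scalings, filters and subsets of columns were the alternatives. Levels are CPM, or CPM per kb of exon (GENCODE M21, 34 of 35 members), and a pseudocount of 0.5 CPM was added on the log2 scale. Members and lists were chosen with earlier results of these data known. Per-column values were given for members called, for the 2 highest per length in each group and for those with an unadjusted p below 0.05 in KO against WT, with some others added after the values were seen. Fold changes were given for members called, with an unadjusted p below 0.05, or largest in their group with a mean of 20 or more counts. Another annotated gene overlaps 9 members. Sequences are from RefSeq. Scripts (Python 3.11.15) were tested on simulated data.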

Additional observations from a re-analysis of the deposited data

Results flagged for a closer look

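In 6 of 123 groups of 5 columns examined, the highest or lowest column stood apart from the next. Its gap, divided by the whole range, exceeded Dixon's limit of 0.71. All 6 gaps were at the highest column. Chance alone gives such a gap at either end in about 1 in 20 groups, which is 6.15 of 123. Among products, the hair keratins Krt82 and Krt83 stood out in HET replicate 2, at 1.38 against 0.521 CPM for Krt82 (share of the range 0.767) and 3.50 against 1.59 CPM for Krt83 (0.718). Among regulators, Lef1 was 35.9 CPM in HET replicate 4 against 23 in the next column (0.807), Ptch1 was 442 CPM in KO replicate 1 against 299 (0.739), and Shh was 32.2 CPM in WT replicate 1 against 29.9 (0.717). The summed level of the regulators was 695 CPM in WT replicate 4 against 636 in the next WT column (0.759).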

How the results depend on the processing

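The count of called members was 0 in every alternative run: other scalings and filters, DESeq2, limma-voom, subsets of the columns and leaving out each column in turn. Over all genes, calls in KO against WT numbered 23 higher and 32 lower, against 99 and 91 with DESeq2, 27 and 79 with limma-voom, 126 and 95 with 24 separate libraries, and 1 and 2 in the 9 libraries of the first title format alone. In KO against WT, 17 of the 31 tested members changed sign in at least 1 alternative, none of them called. Krt26, whose fold change is printed, gave -0.44 in those 9 libraries and from -0.0513 to 0.579 when 1 column was left out, negative without WT replicate 4 or KO replicate 5. Gli1 passed the adjusted threshold of 0.05 with Shh (r = 0.544) and with Ptch1 (r = 0.637) once genotype means were subtracted, and with Ptch1 without the 2 farthest columns (r = 0.640), an alternative chosen after seeing the data. The median log2 fold change of products ran from -0.42 to 0.25 in KO against WT over the alternatives, and that of regulators from -0.01 to 0.17. Depth limits Krt31, Krt33b, Krt72 and Krt81, which were tested only without the filter. In that fit Krt72 gave 2.38 in KO against WT (edgeR adjusted p = 0.512). No paired analysis was possible because the title numbers are not shared between genotypes.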

Other observations

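Genes outside the members were ranked by Spearman rho with Krt71 over the 15 columns after genotype means were removed, among 14636 genes, as a description without a test. The nearest were Ggt1, which encodes a gamma-glutamyltransferase, and the hair keratin Krt87, both with a rho of 0.957, followed by Alox12e, an epidermal lipoxygenase, at 0.929. Dlx2, a homeobox factor, and Ucp2, a mitochondrial carrier, had a rho of 0.904, Cux1, Arg2 and Corin 0.896, Heyl 0.893 and Foxc1 0.882. Corin encodes a protease known from the dermal papilla and is among the 8 dermal papilla genes listed above. The summed level of that list had a rho of 0.22 with Krt71, but this was computed without removing genotype means. All these columns share their library sizes. None of the 10 genes was called in KO against WT. Krt36, a type I hair keratin that was in a list of other follicle genes, had a log2 fold change of 1.12 for KO against WT, and its edgeR adjusted p was at or below 0.1 in 3 of 21 alternatives.

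Adipocyte genes (4) summed to 312 to 978 CPM in WT, 526 to 3616 in HET and 462 to 4816 in KO, with the highest values in KO replicate 4 and HET replicate 3. The sum of 4 genes listed for sebocytes peaked in the same columns, through Scd1 and Pparg, which adipocytes also express, while Awat2 and Mc5r had their lowest KO values in KO replicate 4 (1.64 and 0.411 CPM).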
